A study of Mus musculus with 12 samples.

Results

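The insulin-like growth factor (IGF) genes described here are 10 rows of a table of 23234 gene symbols, taken by symbol: the ligands Igf1 and Igf2, the receptors Igf1r and Igf2r, and the binding proteins Igfbp2, Igfbp3, Igfbp4, Igfbp5, Igfbp6 and Igfbp7. RNA had been sequenced from mouse C57BL/6 pancreatic islets in 12 libraries, 4 in each of 3 groups. The groups were isolated islets that had not been transplanted, and islets recovered 60 or 120 days after transplantation into the inguinal subcutaneous white fat, called day 60 and day 120 grafts. No genetic change or drug is named for any group, and the age of the mice, the strain of the graft recipients and any pooling of animals are not given in the sources used here. The labels number the 4 libraries of a group without saying that they came from separate animals, so p-values reflect the library-to-library spread alone, some of which may be technical. In bulk RNA, fewer cells of a type and less RNA per cell cannot be told apart.

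Igf1 and Igf2 are small secreted hormones related to insulin. Both bind the receptor tyrosine kinase encoded by Igf1r, which signals through insulin receptor substrates and the PI3K-AKT pathway to growth and survival. Igf2r encodes the cation-independent mannose 6-phosphate receptor, which carries lysosomal enzymes and takes up Igf2 for degradation. Most circulating and tissue IGF is held by binding proteins, which limit its access to the receptor, and proteases that cut them release it. In beta cells the Igf1 receptor works beside the insulin receptor, while fat and connective tissue cells are known producers of Igf1 and of several binding proteins.

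Values are FPKM, fragments scaled to transcript length and to library size, which allow levels of different genes to be compared. Changes are differences of mean log2(FPKM + 1), which understate the change of low genes. A change passed when limma gave a Benjamini-Hochberg adjusted p under 0.05 over the 13433 genes that reached 1 FPKM in at least 4 libraries. Of the 10 IGF genes, 9 met that filter and Igfbp2 did not.

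Endocrine RNA was present in every library: the granin gene Chga was at 5745 to 6767 FPKM in isolated islets and 1292 to 6600 in grafts, with a fall at day 60 (log2 -1.12, adjusted p = 0.0327 by limma), and the beta cell factor gene Pdx1 was at 30.2 to 47.4 and 13.7 to 75.7. Of 13 tested endocrine markers 1 rose (Iapp, log2 0.99) and 2 fell (Chga and Neurod1) at day 60. At day 120, 1 rose (Iapp, log2 1.03) and 1 fell (Ppy). The insulin gene Ins2 was listed at 0 in every graft and in isolated islet replicates 1 and 2, and Ins1 at 0 in day 60 replicate 4. The grafts also carried RNA of other cells. All 12 fibroblast markers rose at both times, with a summed level of 22.2 to 31.7 FPKM in isolated islets, 905 to 6860 at day 60 and 399 to 955 at day 120. Of 9 adipocyte markers 8 rose at day 60 and 7 at day 120, and of 8 macrophage markers 8 and 7 rose. All 8 acinar markers fell at both times, from a summed 5930 to 66900 FPKM to 1.42 or less, the chymotrypsinogen gene Ctrb1 being at 1278 to 15371 FPKM in isolated islets and 0.133 or less in grafts. Of 6 red blood cell markers 5 rose at day 60 and 6 at day 120, from a summed 16.6 to 45.4 FPKM in isolated islets to 1860 to 28900 at day 60 and 1940 to 21900 at day 120. The duct marker genes Krt19, Muc1 and Sox9 fell at both times, 3 of the 5 tested. Beside these marker counts, 31.3% of all tested genes rose and 12.3% fell at day 60, and 24.3% and 7.03% at day 120. Day 60 replicate 1 stood apart, with the highest fibroblast, adipocyte and macrophage sums and the lowest sum of 10 endocrine reference genes, 2334 FPKM against 4423 to 9752 in the other grafts. The reference genes were Chga, Chgb, Pax6, Isl1, Insm1, Pcsk2, Slc30a8, Abcc8, Kcnj11 and Scg5. Over all tested genes the median log2 change stood at 0.27 for day 60 and 0.30 for day 120, and moved to -0.04 and 0.02 with quantile normalization and to 0.59 and 0.04 with scaling to the endocrine reference genes. Among genes that passed, the higher share was 71.8% at day 60 and 77.6% at day 120 as deposited. That share was 60.6% and 63.8% with upper-quartile scaling, 45.2% and 45.6% with quantile normalization, 55.2% and 70.9% when libraries were scaled to their sum outside hormone and acinar genes, and 89.7% and 35.7% with endocrine reference scaling.

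In isolated islets the IGF system was mainly a receptor and binding protein system, with little ligand RNA. Igfbp7 was the highest of the 10 genes at 136 FPKM on average, followed by Igfbp3 at 47.4, Igf1r at 26.6 and Igf2r at 14.8. Igfbp5 at 6.65, Igfbp4 at 3.50, Igf2 at 1.81, Igf1 at 0.863 and Igfbp6 at 0.333 lay below, and Igfbp2 was listed at 0 in all 4 libraries. The ranges of neighbours in this order were apart in 4 of 9 pairs: Igfbp7 above Igfbp3, Igfbp5 above Igfbp4, Igfbp4 above Igf2, and Igfbp6 above Igfbp2. In day 60 grafts the order of means was Igfbp7, Igfbp4, Igfbp6, Igfbp3, Igfbp5, Igf1, Igf2r, Igf2, Igf1r and Igfbp2, and only Igf1r and Igfbp2 had ranges that were apart. In day 120 grafts it was Igfbp7, Igfbp4, Igfbp3, Igfbp6, Igfbp5, Igf2r, Igf1, Igf1r, Igf2 and Igfbp2. There the neighbours were apart in 3 pairs: Igfbp7 and Igfbp4, Igf1r and Igf2, and Igf2 and Igfbp2.

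**Figure D1:**
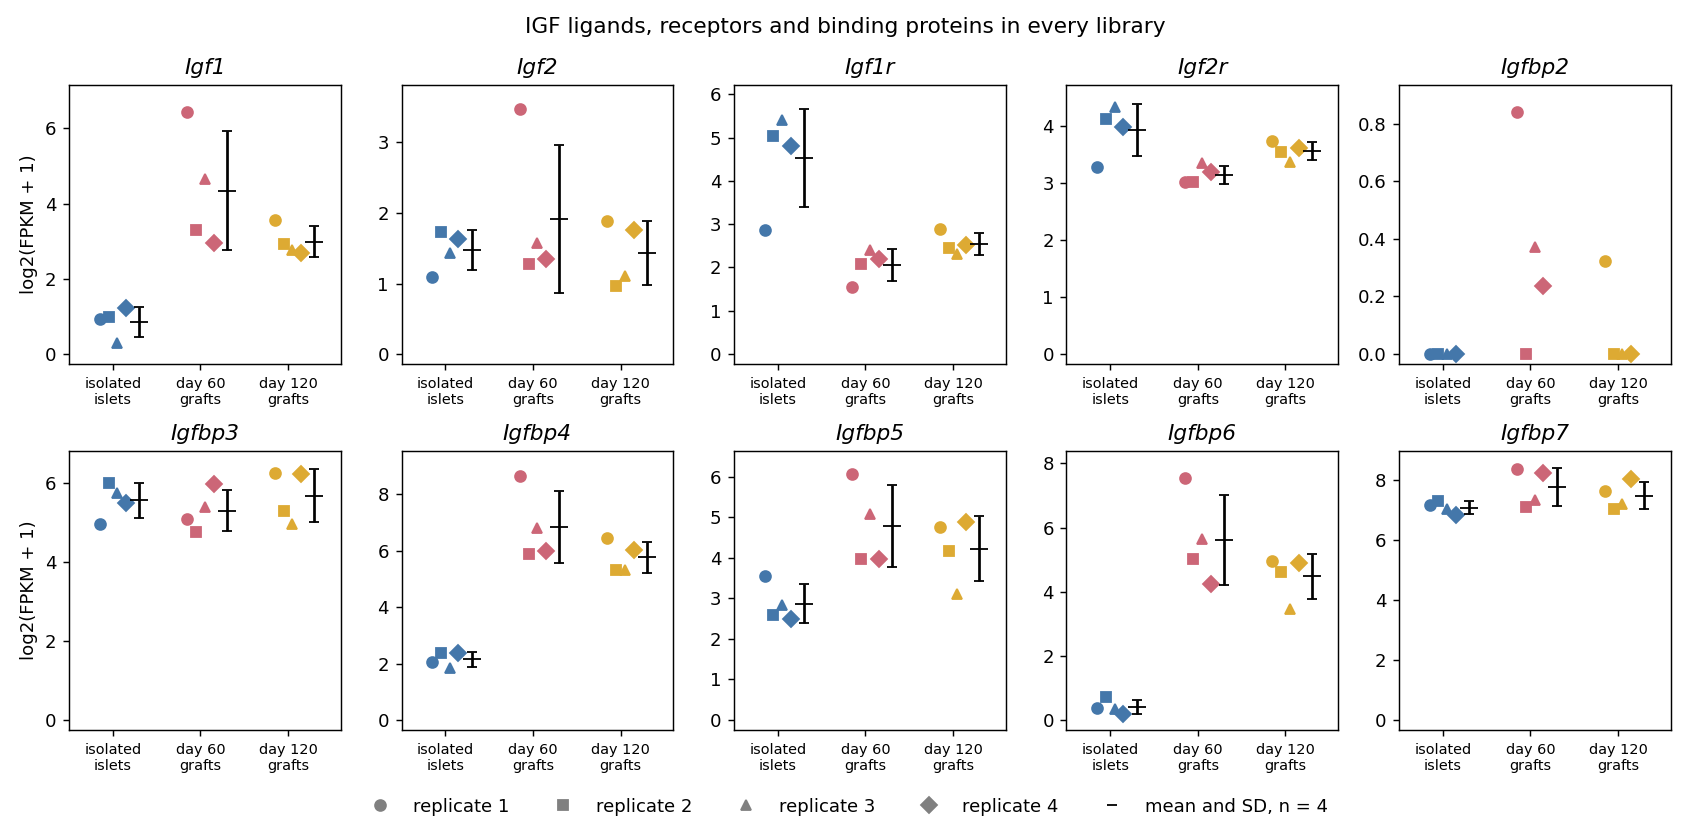
Each panel plots 1 gene as log2(FPKM + 1) in the 4 libraries of each group, with the shape giving the replicate and the black bar the mean and SD (n = 4). Igfbp2 has no bar because it was listed at 0 in 8 of 12 libraries. Igf1, Igfbp4 and Igfbp6 of all 8 grafts lie above every isolated islet library, and isolated islet replicate 1 lies at the level of the grafts for Igf1r.

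The sequences before the transcription start are shown for 4 genes on which the results turn, the binding proteins Igfbp4 and Igfbp6 with the largest log2 changes above and the receptors Igf1r and Igf2r with changes below 0. Each sequence is the 250 bases before a RefSeq start of build GRCm38.p6, on the gene's strand, at chr11:99040994-99041243 (plus strand) for Igfbp4, chr15:102143936-102144185 (plus strand) for Igfbp6, chr7:67952007-67952256 (plus strand) for Igf1r and chr17:12769707-12769956 (minus strand) for Igf2r. The expression files were made on mm9 and carry no coordinates. Capitals mark the TATA-box letters TATAAA, the CCAAT box CCAAT and the GC box GGGCGG, searched on both strands.
Igfbp4: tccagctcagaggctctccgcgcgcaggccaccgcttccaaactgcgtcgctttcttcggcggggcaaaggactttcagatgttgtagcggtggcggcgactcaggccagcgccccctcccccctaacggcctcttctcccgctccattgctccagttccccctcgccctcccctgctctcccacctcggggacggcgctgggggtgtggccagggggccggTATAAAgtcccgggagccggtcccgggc
Igfbp6: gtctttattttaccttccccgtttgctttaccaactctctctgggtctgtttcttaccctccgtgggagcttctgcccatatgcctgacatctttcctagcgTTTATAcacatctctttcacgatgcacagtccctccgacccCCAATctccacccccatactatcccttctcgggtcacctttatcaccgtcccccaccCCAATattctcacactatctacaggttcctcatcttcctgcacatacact
Igf1r: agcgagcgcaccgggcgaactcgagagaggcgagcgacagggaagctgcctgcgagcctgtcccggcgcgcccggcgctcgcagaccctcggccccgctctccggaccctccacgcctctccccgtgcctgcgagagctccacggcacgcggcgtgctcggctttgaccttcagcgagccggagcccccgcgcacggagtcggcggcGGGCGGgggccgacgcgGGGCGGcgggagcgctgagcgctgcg
Igf2r: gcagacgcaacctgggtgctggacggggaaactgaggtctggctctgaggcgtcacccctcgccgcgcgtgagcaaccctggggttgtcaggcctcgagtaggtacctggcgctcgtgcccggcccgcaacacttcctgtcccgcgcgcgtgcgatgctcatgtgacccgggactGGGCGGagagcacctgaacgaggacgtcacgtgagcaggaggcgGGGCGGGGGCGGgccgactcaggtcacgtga
The Igfbp4 window holds 1 TATAAA, whose first base lies 28 bases before the start, and no match to the other motifs. The Igfbp6 window holds 2 CCAAT, at 107 and 50 bases before the start, and 1 TATAAA on the other strand at 148. Igf1r has 2 GGGCGG, at 43 and 26 bases before the start, and Igf2r has 3, at 75, 31 and 25. In these 4 windows no match overlaps another. Of 32851 RefSeq windows of the same length, 12.4% hold TATAAA, 33.8% CCAAT and 32.7% GGGCGG. Among all 14 windows of the 10 genes, all of which were in the RefSeq table, 6 hold GGGCGG, including 1 of Igfbp2, 1 of Igfbp7 and 2 of the 4 of Igf2. A match describes the letters and is not evidence that a factor binds there.

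At day 60, 4 of the 9 tested IGF genes rose and 2 fell by limma. The risers were the ligand Igf1 and the binding proteins Igfbp4, Igfbp5 and Igfbp6, and both receptors fell. In the same fit 31.3% of all tested genes rose and 12.3% fell, 43.7% in all. The median log2 change was 0.68 over the 9 genes and 0.27 over all genes. The groups did not overlap for 4 of the 9 in the higher direction and 1, Igf1r, in the lower, against 22% and 9.01% of all tested genes. At day 120, 3 rose (Igf1, Igfbp4 and Igfbp6) and 1 fell (Igf1r), where 24.3% of all genes rose and 7.03% fell, 31.4% in all. Groups did not overlap for the same 3 in the higher direction and for 0 in the lower, against 28.3% and 7.24% of all genes. Both comparisons use the same isolated islets, so their results are not independent. Between the graft times 0 of the 9 passed by limma and 1, Igf1, had an unadjusted p under 0.05, while 2 of all 13433 genes passed (0.0149%), 1 higher and 1 lower (0.00744% each), and 1356 had an unadjusted p under 0.05. No IGF gene passed between graft times in any alternative run. Groups did not overlap for 1 gene, Igf2r, in the higher direction and for 0 in the lower, against 2.91% and 1.38% of all genes.

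**Figure D2:**
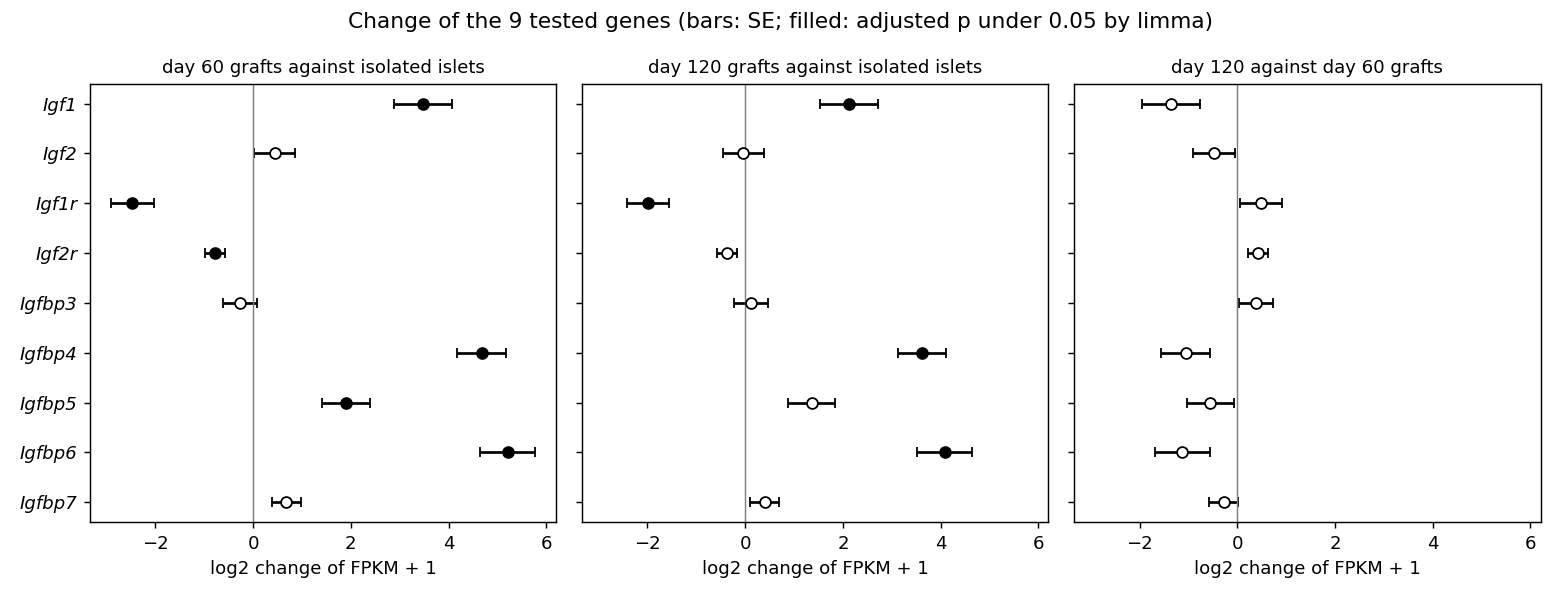
Log2 change of FPKM + 1 for the 9 tested genes in the 3 comparisons, with bars for the SE and filled points for an adjusted p under 0.05 by limma (4 libraries per group). Igf1, Igfbp4 and Igfbp6 lie to the right and Igf1r to the left of 0 in both comparisons with isolated islets, and no point is filled between graft times.

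Igf1, the main ligand of the Igf1 receptor, was close to the floor in isolated islets and clearly present in every graft. Isolated islet replicates 1 to 4 had 0.923, 0.994, 0.216 and 1.32 FPKM. Day 60 grafts had 86.1, 8.92, 24.2 and 6.74 FPKM, and day 120 grafts 10.9, 6.65, 5.75 and 5.50. Every graft lay above every isolated islet library, and day 60 replicate 1 was the highest of all. The mean rose from 0.863 ± 0.465 FPKM (SD, n = 4) to 31.5 ± 37.2 at day 60 and stood at 7.21 ± 2.53 at day 120. By limma the log2 change was 3.48 (SE 0.594, adjusted p = 0.0013) at day 60 and 2.13 (SE 0.594, adjusted p = 0.02) at day 120. Without day 60 replicate 1 the day 60 mean was 13.3 FPKM and the log2 change 2.78 (adjusted p = 0.000208). The day 120 call was lost without isolated islet replicate 2 (log2 2.18, adjusted p = 0.0501) or 3 (1.94, adjusted p = 0.0622), and with endocrine reference scaling (1.86, SE 0.88, adjusted p = 0.277). In the other 20 of 23 alternatives the call was kept. By limma, its adjusted p was 0.000308 (SE 0.254) with only the 2 compared groups fitted and 0.000836 without day 60 replicate 1. The main fit shares 1 estimate of the spread over the 3 groups. The lower mean at day 120 than at day 60 did not pass (log2 -1.35, adjusted p = 0.49), and the 2 groups overlapped.

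Igf2, a ligand made mostly before birth in mice, was low in all groups and did not pass any comparison. It was at 1.13, 2.32, 1.70 and 2.09 FPKM in isolated islets, 10.1, 1.42, 1.97 and 1.53 in day 60 grafts, and 2.69, 0.957, 1.16 and 2.38 in day 120 grafts. The groups overlapped, and only day 60 replicate 1 stood above 2.69 FPKM. The log2 changes from isolated islets were 0.44 (adjusted p = 0.412) at day 60 and -0.04 (adjusted p = 0.95) at day 120 by limma. Without day 60 replicate 1 the day 60 change was -0.07. Igf2 overlaps the antisense RNA Igf2os in RefSeq, and use of strand in the counting is not given, so reads of the 2 cannot be told apart. Under its older symbol Igf2as that RNA was at 0.08 FPKM or less in all 12 libraries.

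Igf1r, the signalling receptor, moved the other way from its ligand. Isolated islets had 6.31, 32.0, 41.2 and 26.8 FPKM, day 60 grafts 1.90, 3.26, 4.29 and 3.61, and day 120 grafts 6.41, 4.48, 3.93 and 4.72. All day 60 grafts lay below all isolated islets, and day 120 replicate 1 lay just above isolated islet replicate 1. Mean levels were 26.6 ± 14.8, 3.27 ± 1.00 and 4.88 ± 1.07 FPKM in that order (SD, n = 4). By limma Igf1r fell at day 60 (log2 -2.47, SE 0.434, adjusted p = 0.00146) and at day 120 (log2 -1.99, SE 0.434, adjusted p = 0.00784), and 99.3% and 99.1% of all tested genes had a higher log2 change. Both calls held in each of the 23 alternatives run, which included endocrine reference scaling (-2.19, adjusted p = 0.014, and -2.25, adjusted p = 0.0365). Chga, which fell at day 60, made up the largest part of the summed FPKM of the 10 endocrine reference genes. It was 6229 of 8650 FPKM in isolated islet replicate 1 and 1292 of 2334 in day 60 replicate 1. Per 1000 FPKM of that sum, Igf1r was at 0.73, 3.56, 4.56 and 3.49 FPKM in isolated islets. In the 8 grafts Igf1r was at 0.376 to 0.816 on that scale. Isolated islet replicate 1 was thus inside the range of the grafts on that scale, and without it the log2 changes were -3.02 at day 60 and -2.54 at day 120.

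Igf2r, the mannose 6-phosphate receptor that clears Igf2, was lower in day 60 grafts by a smaller amount. It was at 8.75, 16.5, 19.2 and 14.8 FPKM in isolated islets, 7.08, 7.14, 9.23 and 8.20 in day 60 grafts, and 12.3, 10.7, 9.35 and 11.3 in day 120 grafts. Isolated islet replicate 1 lay among the day 60 grafts, and every day 120 graft lay above every day 60 graft. By limma Igf2r fell at day 60 (log2 -0.78, SE 0.210, adjusted p = 0.0105), a call lost with endocrine reference scaling (-0.45, adjusted p = 0.405). At day 120 the change was -0.37 (adjusted p = 0.191), and it passed without isolated islet replicate 1 (-0.58, adjusted p = 0.0105). The difference between graft times did not pass (log2 0.42, adjusted p = 0.495).

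Igfbp4, a binding protein that generally restrains IGF action, had the largest rise in FPKM of the 10 genes. It was at 3.11, 4.18, 2.57 and 4.15 FPKM in isolated islets, 402, 57.8, 110 and 63.0 in day 60 grafts, and 85.5, 39.2, 38.9 and 63.3 in day 120 grafts. No graft came near the isolated islets, and the means of 158 ± 164 and 56.7 ± 22.3 FPKM were 45.1 and 16.2 times the islet mean of 3.50 ± 0.796 (SD, n = 4). The log2 change by limma was 4.68 (SE 0.500, adjusted p = 7.69e-05) at day 60 and 3.62 (SE 0.500, adjusted p = 0.000837) at day 120. Without day 60 replicate 1 the day 60 mean was 76.9 FPKM, 21.9 times the islet mean, and the log2 change 4.07 (adjusted p = 4.35e-06). With endocrine reference scaling the day 120 change was 3.30 and no longer passed (adjusted p = 0.0505), with a larger SE of 0.802.

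Igfbp6, a binding protein that prefers Igf2 over Igf1, had the largest log2 rise. Isolated islets had 0.301, 0.633, 0.265 and 0.134 FPKM, day 60 grafts 186, 31.2, 49.1 and 18.1, and day 120 grafts 30.3, 23.5, 9.94 and 28.8. The lowest graft was thus far above the highest isolated islet library. The changes by limma were 5.21 (SE 0.562, adjusted p = 8.86e-05) and 4.08 (SE 0.562, adjusted p = 0.000841), and 0.186% and 0.216% of all tested genes rose by more. Leaving out day 60 replicate 1 lowered the day 60 change to 4.57 (adjusted p = 8.85e-06). Both calls held in each of the 23 alternatives run.

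Igfbp5, a matrix-associated binding protein, rose less. It was at 10.8, 4.97, 6.17 and 4.65 FPKM in isolated islets, 66.3, 14.7, 32.5 and 14.7 in day 60 grafts, and 26.0, 17.0, 7.61 and 28.4 in day 120 grafts. All day 60 grafts lay above all isolated islets, whereas day 120 replicate 3 lay among them. The change passed at day 60 (log2 1.90, SE 0.488, adjusted p = 0.0088 by limma) and missed the threshold at day 120 (1.36, SE 0.488, adjusted p = 0.0504). It passed at day 120 in 10 of 23 alternatives, among them without isolated islet replicate 1 (1.59, adjusted p = 0.0311), day 60 replicate 1 (adjusted p = 0.0163), 2 (0.0457) or 4 (0.0448), or day 120 replicate 3 (1.73, adjusted p = 0.0271).

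Igfbp3 and Igfbp7, the 2 most abundant binding proteins of isolated islets, did not pass in any comparison. Igfbp3, the main carrier of IGF in blood, was at 30.0, 62.8, 52.6 and 44.0 FPKM in isolated islets, 32.9, 25.7, 40.4 and 61.5 in day 60 grafts, and 75.0, 37.6, 29.8 and 73.6 in day 120 grafts. Its groups overlapped, and its log2 changes from isolated islets were -0.26 (SE 0.346, adjusted p = 0.57) and 0.12 (SE 0.346, adjusted p = 0.802) by limma. Igfbp7, a relative with weak IGF binding that is made by vessel walls, was at 144, 157, 129 and 113 FPKM in isolated islets. Day 60 grafts had 327, 137, 160 and 301 FPKM and day 120 grafts 200, 131, 146 and 260. At both times graft replicates 1 and 4 were above every isolated islet library, and replicates 2 and 3 were close to them. The change was 0.68 (SE 0.301, adjusted p = 0.0838) at day 60, which passed without day 60 replicate 2 (0.89, adjusted p = 0.029), and 0.40 (SE 0.301, adjusted p = 0.318) at day 120. Of 8 endothelial markers 2 rose at day 60 and 1 at day 120, where 31.3% and 24.3% of all tested genes rose. The summed level of the 8 markers was 264, 114, 111 and 252 FPKM in day 60 replicates 1 to 4, 258, 110, 124 and 275 in day 120 replicates 1 to 4, and 135 to 175 in isolated islets. Replicates 1 and 4 were thus the high grafts for Igfbp7 and for the endothelial sum alike, and the part of that sum in the Igfbp7 level was not tested.

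Igfbp2, a binding protein of adipose precursors and liver, was hardly detected. It was listed at 0 in all isolated islets, at 0.789, 0, 0.295 and 0.179 FPKM in day 60 grafts, and at 0.25 in day 120 replicate 1 and 0 in the other 3. It stayed below 1 FPKM in all 12 libraries and was not tested.

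Igfbp7 led the summed binding protein RNA by mean share in every group, with a smaller share in grafts than in isolated islets. Their summed level was 166 to 229 FPKM in isolated islets, 267 to 1015 in day 60 grafts and 232 to 454 in day 120 grafts. Igfbp7 held 67.7% to 76.5% of that sum in isolated islets, 32.2% to 65.6% at day 60 and 47.9% to 62.8% at day 120. Igfbp4 held 1.35% to 2.51% in isolated islets and 13.7% to 39.6% in the 8 grafts, and Igfbp6 at most 0.276% in isolated islets and 3.95% to 18.4% in the grafts. The share of Igfbp3 was 24.4% ± 5.67 in isolated islets, 9.14% ± 4.26 at day 60 and 15.6% ± 2.13 at day 120 (SD, n = 4). These shares describe the libraries and were not tested.

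**Figure D3:**
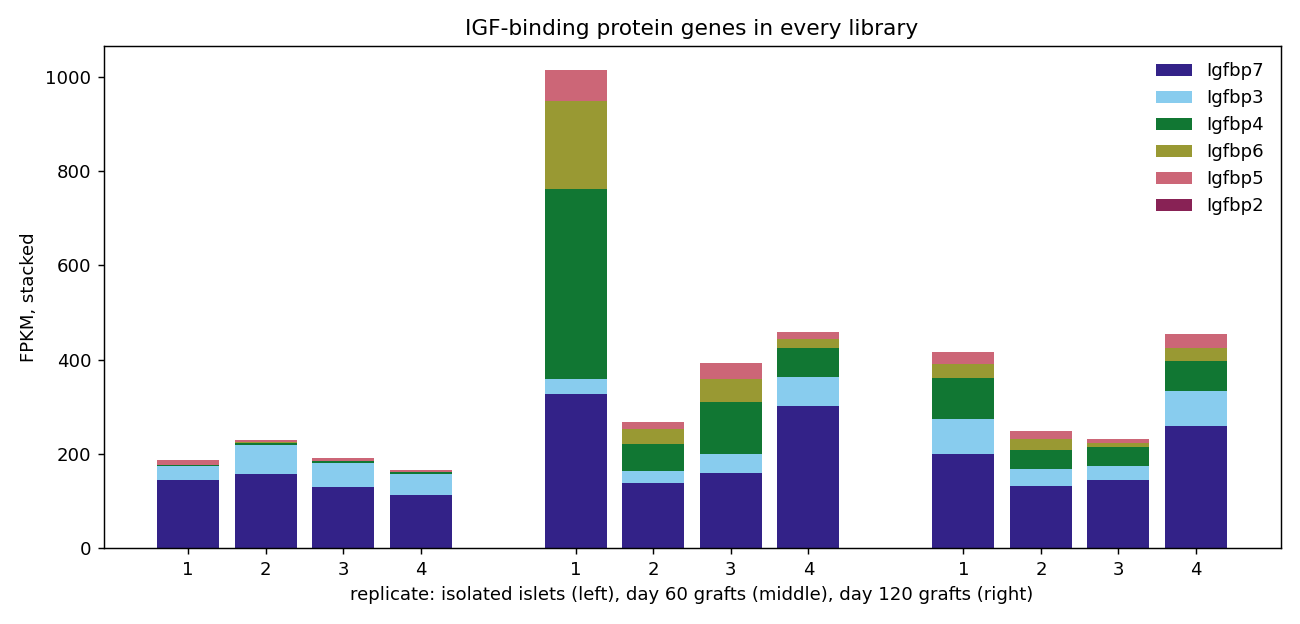
Stacked FPKM of the 6 binding protein genes in each library, with isolated islets on the left, day 60 grafts in the middle and day 120 grafts on the right. Igfbp7 and Igfbp3 fill nearly all of the islet bars, while Igfbp4 and Igfbp6 are visible in every graft and reach 402 and 186 FPKM in day 60 replicate 1.

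Day 60 replicates 1 and 3 had the highest fibroblast marker sums of the 8 grafts, and also the highest Igf1, Igfbp4, Igfbp5 and Igfbp6. These libraries were the highest grafts for the adipocyte sum (11448 and 3495 FPKM) and the macrophage sum (4476 and 1146) as well. Ratios were taken to the fibroblast markers only. Ratios to the adipocyte or macrophage sums were not computed, so the spans below do not tell these cell types apart. The summed level of the 12 fibroblast markers ran from 399 FPKM in day 120 replicate 3 to 6860 in day 60 replicate 1, a 17.2-fold span over the 8 grafts. Igf1 spanned 15.6-fold, Igfbp4 10.3-fold, Igfbp6 18.8-fold and Igfbp5 8.71-fold over the same libraries. Taken per 1000 FPKM of the markers, the spans were smaller. Igf1 was at 6.46 to 16.9 at day 60 and 5.76 to 15.9 at day 120, a 2.93-fold span over all grafts. Igfbp4 was at 58.6 to 76.6 and 66.2 to 124 (2.12-fold), and Igfbp6 at 17.3 to 34.4 and 24.9 to 48.0 (2.77-fold). Igfbp5 had the widest span, at 9.67 to 22.7 and 19.1 to 37.9 (3.92-fold). On this scale the 2 graft times overlapped for all 4 genes. In isolated islets the same ratios were 9.74 to 55.5 for Igf1, 116 to 175 for Igfbp4, 5.64 to 20 for Igfbp6 and 157 to 486 for Igfbp5. Relative to the markers, the grafts thus overlapped the isolated islets for Igf1, Igfbp4 and Igfbp6, but through 1 library each. For Igf1 every isolated islet library but replicate 3 (9.74, with Igf1 at 0.216 FPKM) lay above every graft. For Igfbp4 every graft but day 120 replicate 1 lay below the isolated islets. For Igfbp6 every graft but day 60 replicate 4 (17.3) lay above them. For Igfbp5 all grafts lay below all isolated islets. The fibroblast marker genes Dcn and Pdgfra were at 6.25 to 9.18 and 0.092 to 0.18 FPKM in isolated islets. In grafts they reached 170 to 3284 and 1.26 to 10.1 FPKM. No marker of the list was at 0 in any library. The adipocyte gene Adipoq (2.05 to 3.12 FPKM in isolated islets, 23.7 to 981 in grafts) and the macrophage gene Csf1r (2.19 to 3.82 and 7.03 to 78.6) rose at both times too. The endothelial gene Pecam1 (12.6 to 23.8 and 11.5 to 66.2) and the smooth muscle gene Acta2 (11.6 to 18.1 and 7.94 to 138) did not pass, but other genes of their lists did. The endothelial risers were Tek and Esam at day 60 and Esam at day 120. Of 8 pericyte and smooth muscle markers, 3 rose at day 60 (Tagln, Rgs5 and Myh11) and 2 at day 120 (Tagln and Rgs5). Over all tested genes 31.3% rose at day 60 and 24.3% at day 120. The part of each cell type in the IGF gene levels was not tested.

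**Figure D4:**
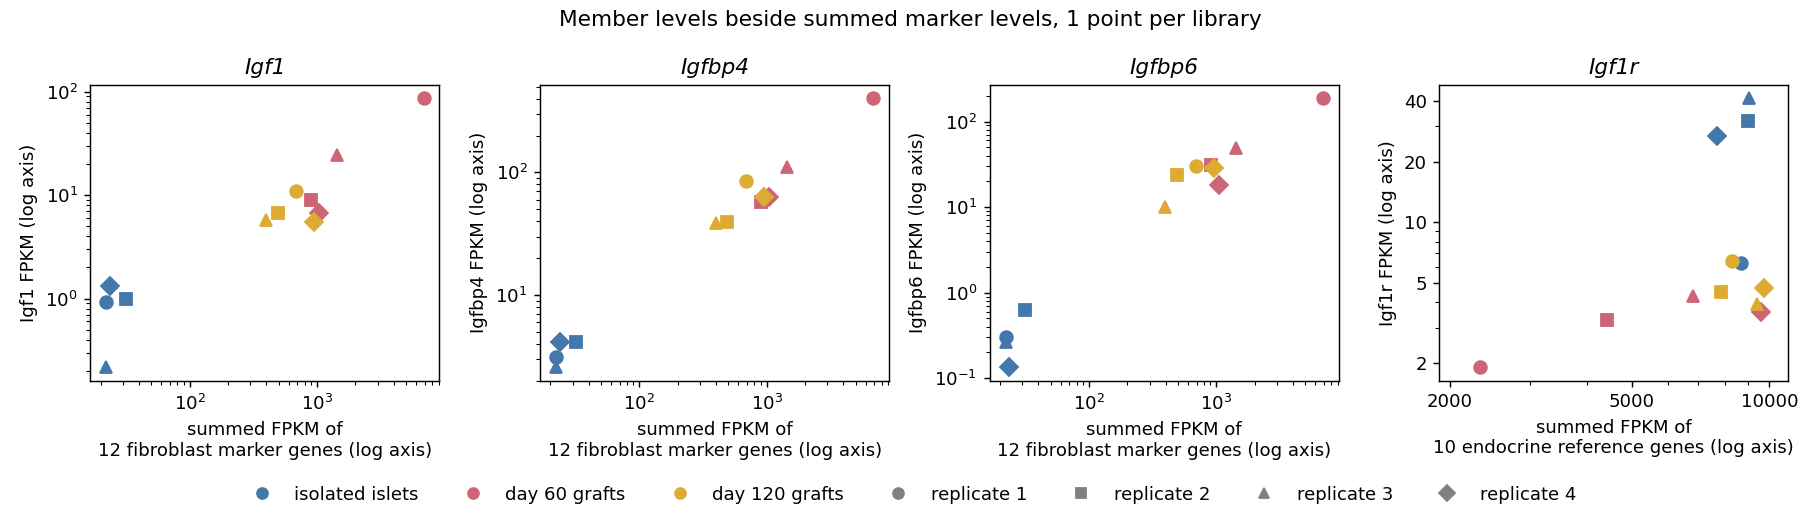
FPKM of Igf1, Igfbp4 and Igfbp6 against the summed FPKM of 12 fibroblast markers, and of Igf1r against the sum of 10 endocrine reference genes, on log axes with 1 point per library. Day 60 replicate 1, with the highest fibroblast sum (6860 FPKM), has the most of the first 3 genes, whereas Igf1r separates 3 isolated islet libraries (26.8 to 41.2 FPKM) from all grafts and isolated islet replicate 1.

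By Pearson correlation of log2(FPKM + 1) over the 12 libraries, the pattern closest to Igfbp4 was that of Dcn (r = 0.994), followed by Lyz2 and Clec3b (0.993 each), Dcn and Clec3b being fibroblast markers and Lyz2 a macrophage marker of the lists above. For Igfbp6 it was Clec3b (0.994), Dcn (0.993) and Lyz1 (0.991), and for Igf1 Prkcdbp, Clec12a and Lgals3 (0.989, 0.989 and 0.988). Igfbp5 was nearest to Ssu72 (0.968), Fn1 (0.967) and Hip1 (0.965). Igf1r was nearest to Mast4 (0.993), Gsk3b and Eaf1 (0.987 each), and Igf2r to Zbtb39 (0.975), Bcor and Clip1 (0.971 each). Igfbp7 was nearest to Sparcl1 (0.974), Pdgfb (0.951) and Acvrl1 (0.949), Igfbp3 to Gosr2 (0.894), Kdr (0.863) and Nfic (0.853), and Igf2 to Mocos (0.985), Kctd10 (0.962) and Akap12 (0.961). With the group means taken out, the first-named genes had r of 0.950 for Igfbp4, 0.953 for Igfbp6, 0.962 for Igf1, 0.971 for Igf1r and 0.978 for Igfbp7. A single library far from its group stays in these deviations and can raise r. Such libraries were day 60 replicate 1 for Igfbp4 (402 FPKM) and isolated islet replicate 1 for Igf1r (6.31 FPKM). These are the highest of many correlations over libraries that share their composition, and are given as a description.

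Of 9 genes of binding protein partners, proteases and stanniocalcins, 6 were tested, and 5 rose at day 60 and 4 at day 120 by limma, with none lower. Over all genes, 31.3% rose at day 60 and 24.3% at day 120. The median log2 change was 1.11 and 1.37, against 0.27 and 0.30 over all genes. Pappa2, a protease that cuts Igfbp5 and Igfbp3, was high already in isolated islets at 36.6, 25.5, 37.6 and 23.6 FPKM. Day 60 grafts had 31.1, 82.8, 101 and 94.1 FPKM and day 120 grafts 75.0, 125, 113 and 82.0. Every graft but day 60 replicate 1 was above the isolated islets, and the log2 change was 1.20 (adjusted p = 0.0129) at day 60 and 1.64 (adjusted p = 0.00586) at day 120. Day 60 replicate 1, the graft with the most Igf1, was thus the graft with the least Pappa2. That library also had the lowest sum of the endocrine reference genes, 2334 FPKM against 4423 to 9752 in the other grafts. A link between Igf1 and Pappa2 was not tested. Its relative Pappa, the main protease of Igfbp4, stayed at 0.199 FPKM or less in all libraries and was not tested. The serine proteases Htra1 and Htra3 rose by log2 3.29 and 3.69 at day 60 and 1.91 and 2.44 at day 120, from 1.48 ± 0.091 and 0.230 ± 0.107 FPKM in isolated islets (SD, n = 4). Igfals, the acid-labile subunit that binds the complex of Igfbp3 and IGF, rose by log2 1.02 (adjusted p = 0.0471 by limma) and 1.09 (adjusted p = 0.047), close to the threshold. It was at 13.7 FPKM in isolated islet replicate 1 and 3.92 to 4.77 in the other isolated islets. Day 60 grafts had 6.74 to 24.3 FPKM and day 120 grafts 9.98 to 17.2, so both overlapped the isolated islets. Stc2, an inhibitor of pappalysins, rose at day 60 (log2 1.02) and did not pass at day 120 (0.38). Igfbp1 was listed at 0 in all 12 libraries.

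Igf2bp2, an RNA-binding protein named for its target Igf2 mRNA, fell to near the floor. It was at 2.12, 7.70, 5.27 and 5.06 FPKM in isolated islets, 0.925, 0.346, 0.515 and 0.434 in day 60 grafts, and 0.304, 0.176, 0.107 and 0.395 in day 120 grafts. No graft reached the lowest isolated islet library, and the log2 changes by limma were -1.88 and -2.19. In the list of Igf2 mRNA regulators and locus neighbours, 3 of 7 genes in the table were tested, with 1 higher and 2 lower at both times, where 31.3% and 12.3% of all genes were called at day 60 and 24.3% and 7.03% at day 120. The median of the 3 was -1.02 and -1.76, against 0.27 and 0.30. The imprinted transcription factor gene Plagl1 fell by log2 -1.02 and -1.76, and the chromatin protein gene Hmga2, which promotes Igf2bp2 expression in other tissues, rose by 0.73 and 0.72. H19, the imprinted RNA beside Igf2, stayed at 0.468 FPKM or less.

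Growth hormone drives Igf1 in liver and other tissues through Jak2 and Stat5. Of 8 genes on that axis, 1 rose and 2 fell at day 60, and none rose and 2 fell at day 120. The shares over all genes were 31.3% higher and 12.3% lower at day 60, and 24.3% and 7.03% at day 120. The median log2 change of the 8 was -0.50 and -0.11, against 0.27 and 0.30. The receptor gene Ghr was higher at day 60, at 110 ± 67.6 against 46.9 ± 8.83 FPKM (log2 1.02, adjusted p = 0.0315 by limma), and not past the threshold at day 120 (66.1 ± 8.11 FPKM, log2 0.49; SD, n = 4 each). The kinase gene Jak2 fell by log2 -1.04 and -1.15, and the feedback inhibitor gene Socs3 by -1.57 and -1.63. Jak2 was at 8.30 FPKM in isolated islet replicate 1 and 19.3 to 23.6 in the other isolated islets, against 5.68 to 9.24 in the grafts. Socs2, a target of growth hormone, had log2 -0.51 and -0.26 and Stat5b 0.18 and 0.40, none past the threshold.

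Of 33 genes of the pathway below the Igf1 receptor, 32 were tested, and 1 rose and 6 fell at day 60, 3 rose and 4 fell at day 120. In the same fits 31.3% of all genes rose and 12.3% fell at day 60, and 24.3% and 7.03% at day 120. The median log2 change of the list was -0.16 and -0.01 against 0.27 and 0.30. The kinase gene Gsk3b, which AKT inhibits, fell by log2 -1.30 and -1.03, from 23.0 ± 7.96 to 8.24 ± 0.414 and 10.2 ± 1.40 FPKM (SD, n = 4). The adaptor gene Irs2 fell at day 60 (log2 -1.37, adjusted p = 0.0102) and missed the threshold at day 120 (-0.97, adjusted p = 0.057), with isolated islet replicate 1 at 35.4 FPKM and the other isolated islets at 7.09 to 11.3. The transcription factor gene Foxo3 fell by -1.07 and -0.62 and the mTORC2 subunit gene Rictor by -0.85 and -0.93. The adaptor gene Grb14, an inhibitor of insulin and IGF receptors, rose by 0.77 and 0.76. Tsc2, which restrains mTORC1, had log2 0.28 at day 60 and rose by 0.52 at day 120. The insulin receptor gene Insr did not pass, with log2 0.0027 at day 60 and 0.18 at day 120, nor did Irs1 with 0.01 and -0.01.

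**Figure D5:**
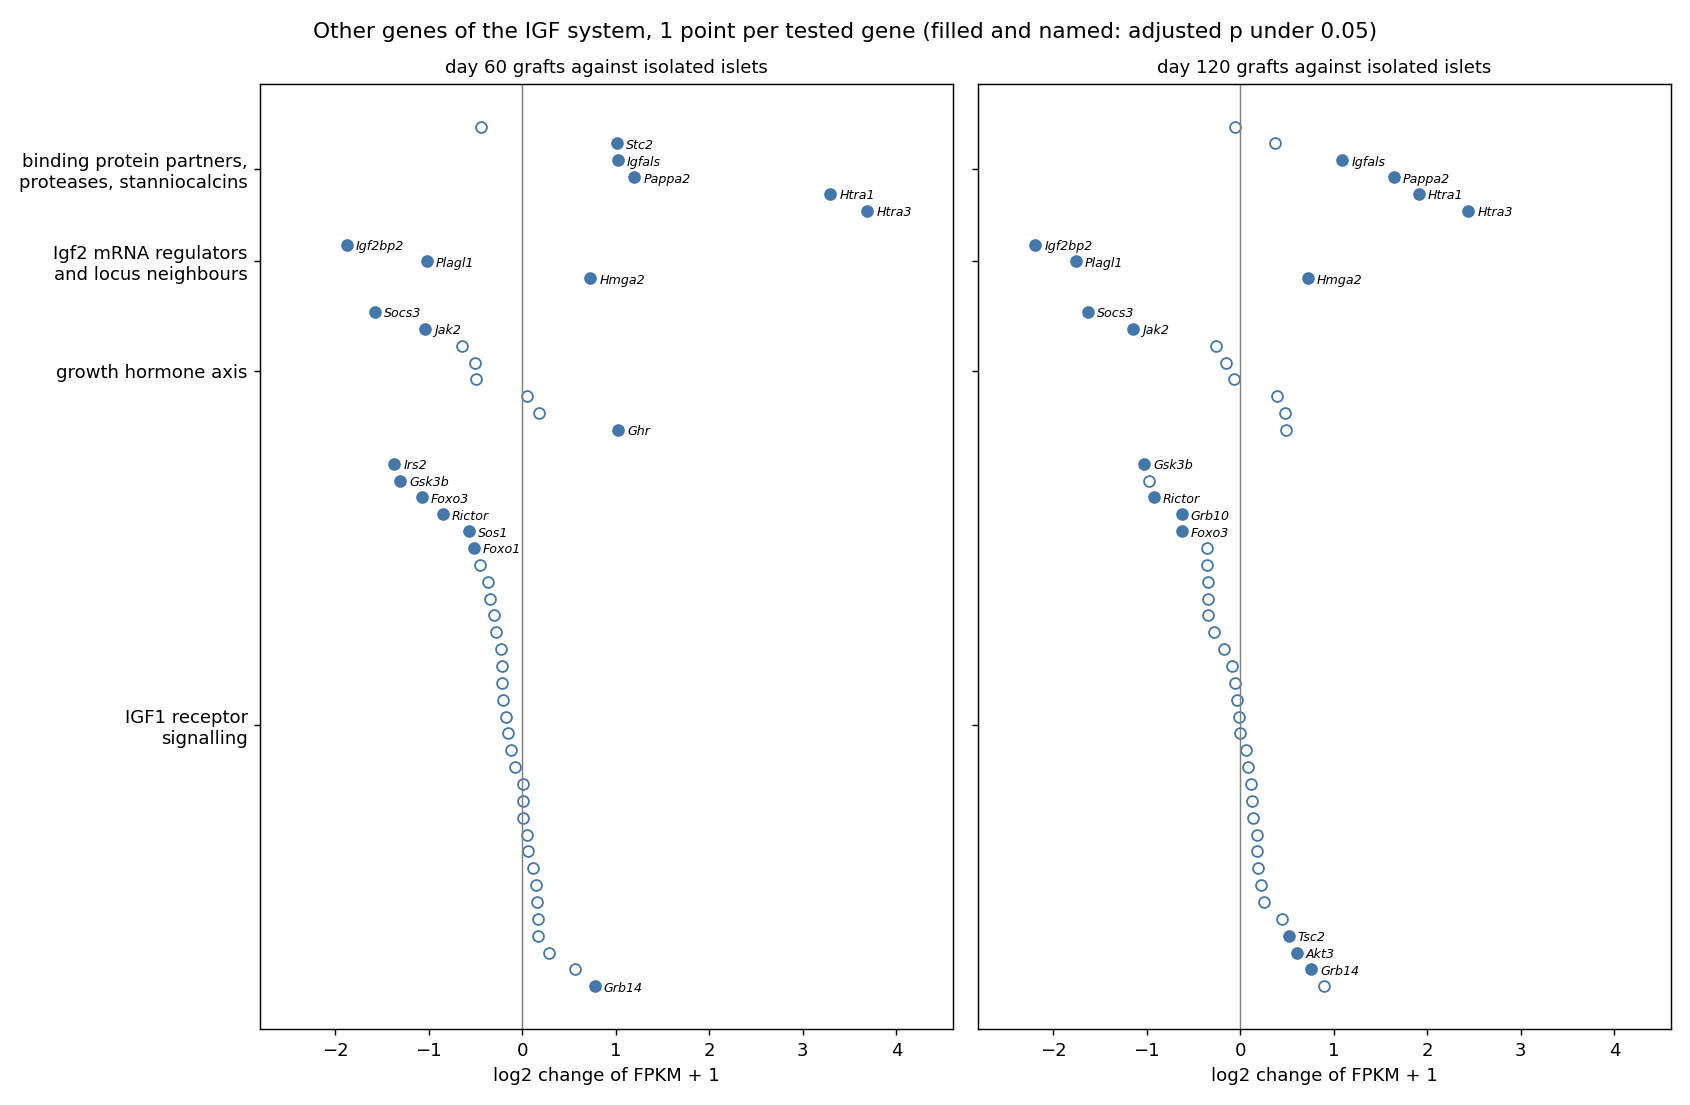
Log2 change of FPKM + 1 against isolated islets at day 60 and day 120 for every tested gene of 4 lists of the IGF system, sorted within each list, with filled and named points for an adjusted p under 0.05 by limma (4 libraries per group). Htra3 (3.69) and Htra1 (3.29) lie farthest right at day 60, and Igf2bp2 farthest left at both times (-1.88 and -2.19).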

How the data were processed

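SMARTer cDNA from total RNA of 12 samples was sequenced on a HiSeq instrument, per the labels' protocols. The authors deposited 1 table of FPKM values, with 1 value per gene symbol and library. TopHat2, Cufflinks 2.1.1 and the build mm9 are named, per the submitters' processing notes. Annotation, program options, use of strand and between-library scaling are not given in the sources used here.

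The deposited FPKM sum to 396769 to 786366 per library. Read counts are not in the table. In rows of microRNAs and small nucleolar RNAs, the most common ratio to isolated islet replicate 1 was shared, within 0.3%, by only 3 to 10 of 27 to 40 rows, so depth was taken as unknown and no counting interval is given. A value of 0 can be a failed estimate.

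From the table, log2(FPKM + 1) was computed without further scaling, and 9801 genes below the filter were left out. limma 3.58.1 (R 4.3.3, statmod 1.5.0) fitted the 3 group means over the 12 libraries without covariates, using the trend and robust options, and each comparison was a two-sided contrast. The procedure was checked on simulated data. Alternatives changed the scaling, the pseudocount (0.1), the filter (none, or 5 FPKM), the samples fitted, the variance model, the replicate block and the libraries.

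The IGF genes, gene lists and tests were chosen with earlier results of these data known. The text names all 10 IGF genes and up to 4 genes of each pathway list with the smallest p. Also named are the 3 genes nearest in pattern to each IGF gene, set marker genes and the 10 endocrine reference genes. Others (Pappa, Igfbp1, H19, Igf2as, Insr, Irs1, Tek, Esam, Tagln, Rgs5, Myh11, Muc1, Sox9, Iapp, Neurod1, Ppy, Ins1, Ins2) were chosen after their values were seen. Same-numbered day 60 and day 120 libraries deviated together from their group means (correlations 0.18 to 0.442 over tested genes), and those of isolated islets and grafts did not (-0.0784 to 0.0199). The numbers may therefore pair the grafts, which the labels do not say. The main fit between graft times does not use such a pairing. The replicate block was run on the 8 grafts and, as planned, also on all 12 libraries, where it blocks isolated islets by a number for which no shared deviation was seen.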

Additional observations from a re-analysis of the deposited data

Results flagged for a closer look

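In 3 of the 29 sets of 4 FPKM values examined, 1 library stood far from the other 3 by Dixon's criterion. Chance alone gives about 1 in 20 for independent, normally distributed values. These sets were unlogged FPKM from the same 12 libraries, so that rate is only a rough guide. For Igf2, day 60 replicate 1 was at 10.1 FPKM and the next highest library of that group at 1.97. For Igfbp4, the same library was at 402 FPKM and the next at 110. For Igfbp2, day 120 replicate 1 was at 0.25 FPKM and the other 3 were listed at 0, a set in which any single value above 0 is flagged.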

How the results depend on the processing

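Over 627 recomputed changes of single IGF genes, 609 kept their side of the threshold with the direction of any call, 5 lost a call, 13 gained one and none reversed a call. In 21 of 27 gene and comparison pairs no alternative changed the call. With endocrine reference scaling, 2 IGF genes passed at day 120 instead of 4. All genes passing were 3278 instead of 5865 at day 60 and 314 instead of 4212 at day 120. The scaling factor was 0.304 for day 60 replicate 1 and 0.837 to 1.374 for the other libraries. In that run, as in the main fit, the 3 groups shared 1 estimate of the spread. The cause of the lower counts was not tested. Without both isolated islet replicate 1 and day 60 replicate 1, 7437 genes passed at day 120. Between graft times the 2 genes that passed became 4 with no filter, 1 with the filter at 5 FPKM and 1 without both libraries.

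Leaving out 1 library at a time, 6 to 7 IGF genes passed at day 60, 3 to 6 at day 120 and 0 between graft times. Over all genes, 4074 to 6861 passed at day 60, 1839 to 6004 at day 120 and 1 to 20 between graft times. With the replicate block on all 12 libraries, 6, 5 and 0 IGF genes passed, Igfbp5 at day 120 being added (log2 1.36, adjusted p = 0.0292). With the replicate block on the 8 grafts alone, 0 IGF genes and 3 of all genes passed between graft times. The unknown depth limits what can be said of Igf2 and Igfbp2.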

Other observations

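Isolated islet replicate 1 stood apart from the other 3 isolated islets for several genes that fell in grafts, in no single direction, as seen once the values were known. It was nearer to the grafts for Igf1r, at 6.31 FPKM against 26.8 to 41.2 in the other 3 and 1.90 to 6.41 in the 8 grafts, and for Jak2, at 8.30 against 19.3 to 23.6 and 5.68 to 9.24. Igf2bp2, at 2.12 against 5.06 to 7.70, was still above the grafts, which reached 0.925. Isolated islet replicate 1 was farther from the grafts for Irs2, at 35.4 against 7.09 to 11.3, and for Socs3, at 36.8 against 22.1 to 27.6. Its fibroblast sum was 22.2 FPKM, and its duct keratin gene Krt19 was at 95.6 FPKM against 9.26 to 20.3 in the other isolated islets and 0.72 or less in the grafts.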
